A study of Mus musculus with 12 samples.

Results

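The genes described here are 43 genes of the ATF4 and unfolded protein responses, out of 20018 named genes on a mouse expression array, in alveolar macrophages that lacked the transcriptional repressors Bach1, Bach2 or both. They were taken as a list of known genes, chosen with earlier results of these data known, and each was read from its brightest probe. The list has 2 arms. The ATF4 amino acid arm has 19 genes (Asns to Ddit4), of which 18 had a probe and 17 passed the filter on dim probes. The ER chaperone arm has 24 genes (Hspa5 onward), all with a probe, of which 23 passed. Pycr1 had no probe named for it, and Vldlr and Dnajb11 were too dim to be tested. Alveolar macrophages were sorted by flow cytometry from the lung lavage of female C57BL/6 mice aged 8 to 9 weeks. The 4 genotypes were Bach1/Bach2 double knockout (DKO), Bach2 knockout (Bach2 KO), Bach1 knockout (Bach1 KO) and wild type (WT), with 3 independent mice each. Each of the 12 arrays held the amplified, Cy3-labelled RNA of 1 mouse. The labels name no other allele and no treatment, and do not say in which cells the genes were deleted.

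ATF4 is a transcription factor whose protein is made when the initiation factor eIF2 is phosphorylated, as happens on amino acid shortage, haem shortage or stress of the endoplasmic reticulum (ER). It switches on genes for amino acid uptake and synthesis, tRNA charging and feedback control. The ER unfolded protein response runs through the sensors PERK (Eif2ak3), IRE1 (Ern1) and ATF6, and the last 2 act on ER chaperones and on ER-associated degradation. PERK feeds into ATF4, so the arms can move together under ER stress and apart when another eIF2 kinase acts. Bach1 and Bach2 are related repressors that bind DNA with small Maf proteins, and Bach1 is released from DNA by haem.

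The promoters of the 2 arms differ in the elements they carry, and 5 promoters are shown because, among members that hold the element of their arm, they belong to the 2 per arm with the largest difference that passed in Bach2 KO against WT, with Atf4 itself beside them. Each line gives the 250 bases before the gene's start in RefSeq (GRCm38.p6), written 5′ to 3′ on the gene's strand. Capitals mark a C/EBP-ATF response element (CARE, TGATGNAA) in Chac1 and Asns and an ER stress response element (ERSE, CCAAT and CCACG with 9 bases of any kind between them) in Dnajc3 and Calr, on either strand. In Atf4 no CARE was found.
Chac1, chr2:119350992-119351241, plus strand: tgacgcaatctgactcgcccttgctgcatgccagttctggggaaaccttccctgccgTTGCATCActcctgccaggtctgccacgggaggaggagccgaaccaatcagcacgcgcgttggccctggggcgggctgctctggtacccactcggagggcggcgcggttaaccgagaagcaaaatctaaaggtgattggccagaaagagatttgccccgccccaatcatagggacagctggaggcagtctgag
Asns, chr6:7693210-7693459, minus strand: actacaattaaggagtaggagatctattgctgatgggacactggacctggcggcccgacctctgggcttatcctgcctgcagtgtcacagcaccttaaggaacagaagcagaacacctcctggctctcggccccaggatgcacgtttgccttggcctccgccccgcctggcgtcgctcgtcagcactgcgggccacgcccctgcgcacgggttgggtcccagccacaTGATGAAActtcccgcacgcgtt
Dnajc3, chr14:118937682-118937931, plus strand: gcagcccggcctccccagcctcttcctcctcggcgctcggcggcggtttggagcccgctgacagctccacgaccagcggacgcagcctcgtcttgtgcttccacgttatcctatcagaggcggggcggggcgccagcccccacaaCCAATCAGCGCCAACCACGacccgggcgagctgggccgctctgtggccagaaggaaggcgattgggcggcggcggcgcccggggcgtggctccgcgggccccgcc
Calr, chr8:84846932-84847181, minus strand: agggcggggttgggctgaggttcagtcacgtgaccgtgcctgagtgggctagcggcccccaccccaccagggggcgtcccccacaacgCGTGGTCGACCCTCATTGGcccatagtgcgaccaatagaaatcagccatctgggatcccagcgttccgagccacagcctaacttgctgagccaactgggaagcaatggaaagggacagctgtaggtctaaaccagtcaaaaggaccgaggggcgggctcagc
Atf4, chr15:80254934-80255183, plus strand: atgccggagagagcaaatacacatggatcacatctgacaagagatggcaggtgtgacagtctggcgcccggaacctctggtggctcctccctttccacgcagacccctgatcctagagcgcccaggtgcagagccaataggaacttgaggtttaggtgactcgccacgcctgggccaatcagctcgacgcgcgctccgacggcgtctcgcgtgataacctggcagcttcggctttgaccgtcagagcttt

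The windows searched ran from 250 bases before to 50 bases after each start, on both strands, and were at hand for 19 genes of the ATF4 arm and 20 of the ER arm. CARE was found in 6 of the 19 (Asns, Chac1, Nupr1, Pycr1, Trib3 and Vldlr), or 31.6%, in 1 of the 20 (Herpud1), or 5%, and in 4.51% of all 27025 genes. ERSE was found in none of the 19 and in 9 of the 20, or 45%, against 0.137% of all genes. The 9 genes are Calr, Canx, Creld2, Derl3, Dnajc3, Hsp90b1, Hspa5, Pdia6 and Syvn1. ERSE-II (ATTGG, any 1 base, CCACG) was found in Dnajb11 and Herpud1 and in 0.0444% of all genes. The UPR element TGACGTGG was found in no member and in 0.714% of all genes. The antioxidant response element core TGACNNNGC, a shape bound by Bach and Nrf2 heterodimers, was found in 5 of 19 and 5 of 20 members, against 14% of all genes, and the Maf recognition element (TGCTGA, any 1 base, TCA) in no member and in 0.492% of all genes. Matches of different motifs can share bases: ERSE, ERSE-II and the reverse complement of the UPR element all hold CCACG, and a Maf recognition element can hold the antioxidant core. A match is a description of these letters and not a binding site. The ERSE copies below, each on the strand that reads CCAAT first, show how the fixed ends (capitals) flank a spacer that differs from gene to gene.
Hspa5, chr2:34772025-34772043, plus strand: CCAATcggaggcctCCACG
Canx, chr11:50325800-50325818, minus strand: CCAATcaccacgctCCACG
Creld2, chr15:88819520-88819538, minus strand: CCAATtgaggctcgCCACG
Pdia6, chr12:17266491-17266509, plus strand: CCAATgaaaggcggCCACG
Syvn1, chr19:6046532-6046550, plus strand: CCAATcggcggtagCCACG

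The values below are log2 processed signals minus the array's 75th percentile, so 0 is the 75th percentile of that array. Differences are given ± SE from a limma fit over all 12 arrays, and a difference counts as passed where its p, adjusted by Benjamini-Hochberg over 23124 genes or transcripts, is under 0.05. Of 59305 spots per array, 45.2% to 72.4% were well above background and none was saturated. Slide 3 carried the DKO arrays alone and was scanned on another day, slide 2 carried Bach2 KO replicate 3, and slide 1 carried the remaining 8. In every DKO comparison genotype, slide and scan day therefore cannot be told apart, and Bach2 KO against WT is also given within slide 1. The Bach1 probe read 2.59, 3.13 and 1.72 in DKO and 2.40, 2.55 and 2.53 in Bach1 KO, against 3.72, 4.28 and 3.77 in WT. Its difference passed in DKO against WT (-1.44 ± 0.32, adjusted p = 0.00578, limma) and not in Bach1 KO against WT (-1.43 ± 0.32, adjusted p = 0.216), although those groups did not overlap. The Bach2 probe was well above background on 10 of 12 arrays and showed no difference that passed, so it did not check the Bach2 labels. Where either probe lies relative to the deleted part was not given in the sources used here.

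The markers of the sorted cells moved with both Bach2-deficient genotypes. Of 22 alveolar macrophage markers, 15 (68.2%) were lower and 0 higher in DKO against WT, and 16 (72.7%) were lower and 0 higher in Bach2 KO against WT. Of all genes and transcripts tested, 10.6% were higher and 16.6% lower in DKO, and 12.4% higher and 24.7% lower in Bach2 KO. The summed level of the macrophage markers, in multiples of the array's 75th percentile signal, ranged from 569 to 952 in DKO, 724 to 933 in Bach2 KO, 1530 to 2590 in Bach1 KO and 2170 to 2760 in WT. Krt79 fell by 8.42 ± 0.29 in DKO (adjusted p = 9.64e-09, limma) and by 5.47 ± 0.29 in Bach2 KO (adjusted p = 2.69e-07). Il18 fell by 6.52 ± 0.27 (adjusted p = 3.26e-08) and 5.80 ± 0.27 (adjusted p = 1.33e-07) in the same comparisons, Plet1 by 7.25 ± 0.34 in DKO and in Bach2 KO Fabp1 differed by -8.88 ± 0.62. Of 17 B and plasma cell markers 10 were tested, and 5 were higher and 1 lower in each of these comparisons. Slamf7, Sdc1 and Blnk led them, with at least 220-fold, at least 119-fold and 8.47 ± 0.49 on the log2 scale in DKO, and at least 262-fold, at least 34.1-fold and 7.33 ± 0.49 in Bach2 KO. Slamf7 and Sdc1 were well above background on no WT array and passed the filter only through the genotypes where they were high. Cd79b, at least 19.8-fold higher in DKO and at least 20-fold in Bach2 KO, was also well above background on no WT array. Only knockout arrays carried it through the filter. The place of Slamf7, Sdc1 and Cd79b in these counts therefore gives no support. Cd79a, Ms4a1, Jchain and Tnfrsf17, which mark B or plasma cells, did not pass the filter and were well above background on 6, 6, 2 and 5 of 12 arrays. The summed B and plasma cell level was 50.3 to 100 in DKO, 41.8 to 53.1 in Bach2 KO, 10.5 to 11.6 in Bach1 KO and 10.4 to 16.2 in WT.

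Of T and NK cell markers, 5 of 10 tested were higher and 1 lower in both comparisons, led by Lck (4.5 ± 0.40 in DKO and 3.62 ± 0.40 in Bach2 KO). Cd3g was 5.0 ± 0.65 and 4.44 ± 0.65 higher, Cd3d at least 13.9-fold higher in DKO and Cd28 3.15 ± 0.40 higher in Bach2 KO. Cd3d was well above background on no WT or Bach1 KO array, and Cd3g on 1 WT array and no Bach1 KO array. Both passed the filter only through the genotypes where they were high. The summed T and NK cell level was 4.53 to 5.79 in DKO, 4.98 to 5.58 in Bach2 KO, 3.11 to 4.47 in Bach1 KO and 2.78 to 4.59 in WT. Of dendritic cell markers, 5 of 11 were higher in DKO and 6 higher and 1 lower in Bach2 KO, led by Cd209a, Dpp4 and Flt3, while the summed level was 119 to 141 in DKO, 144 to 155 in Bach2 KO, 92.3 to 152 in Bach1 KO and 100 to 174 in WT. Cd209a and Dpp4 were well above background on no WT array and were likewise kept only through the genotypes where they were high. Epithelial markers split 2 higher and 2 lower of 9 in both comparisons, with Cdh1 and Hopx higher and Epcam lower, and summed to 33.6 to 43.6 in DKO, 45.2 to 60.4 in Bach2 KO, 14.7 to 18.1 in Bach1 KO and 16 to 22.4 in WT. Neutrophil markers split 1 higher (S100a9) and 2 lower (Mmp8 and Cxcr2) of 9 in DKO and 1 higher and 3 lower (Mmp8, Cxcr2 and Csf3r) in Bach2 KO, and summed to 78.4 to 117 in DKO, 52.1 to 69.0 in Bach2 KO, 90.8 to 141 in Bach1 KO and 99.6 to 142 in WT. S100a9, well above background on 1 WT array and no Bach1 KO array, was kept only through the genotypes where it was high. Of 12 eosinophil and mast cell markers 1 was tested (Tpsb2) and it did not pass, and 5 were well above background on no array. It read 0.0846 to 0.108 in DKO, 0.102 to 0.126 in Bach2 KO, 0.0658 to 0.138 in Bach1 KO and 0.0949 to 0.134 in WT. These counts stand against 10.6% higher and 16.6% lower in DKO, and 12.4% and 24.7% in Bach2 KO, over everything tested. The neutrophil shares in DKO, 11.1% higher and 22.2% lower, were near these. The part of the marker shifts in the results below was not tested. In a sorted bulk sample, fewer cells of a type and less RNA per cell cannot be told apart.

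Some members of the ATF4 amino acid arm were higher in DKO and in Bach2 KO than in WT, and in Bach2 KO others were lower. In DKO against WT, 8 of 17 tested members rose and 0 fell. The 8 were Chac1, Asns, Ppp1r15a, Trib3, Mthfd2, Ddit3, Atf5 and Psat1, or 47.1% of the arm, where 10.6% of all genes and transcripts rose, 16.6% fell and 27.2% passed in either direction. The arm's median difference was 1.31, against -0.28 over everything tested. In Bach2 KO against WT, 6 of 17 rose (Chac1, Asns, Mthfd2, Trib3, Ppp1r15a and Ddit3), or 35.3%, and 3 fell (Phgdh, Nupr1 and Shmt2), or 17.6%. Here 12.4% of everything tested rose, 24.7% fell and 37.1% passed, and the arm's median was 0.37 against -0.30 over everything tested. These Bach2 KO counts also move with the scaling, to 9 higher and 1 lower with quantile normalization (median 0.93), 9 higher and 0 lower with no scaling (median 1.06) and 6 higher and 4 lower with scaling to the array median (median 0.14). Over all 23124 genes and transcripts, 3520 rose and 4354 fell with quantile normalization and 4778 rose and 2165 fell with no scaling. With scaling to the array median, 2360 rose and 6927 fell. In DKO, 11 rose and 3 fell with array quality weights, the 3 being Nupr1 (-1.18), Phgdh (-0.71) and Psph (-0.60), and 7 rose and 1 fell with scaling to the array median. Array quality weights also made more of everything tested pass in DKO, as counted in the closing part. With scaling to the array median, 2153 of all genes and transcripts rose and 4490 fell in DKO. Within slide 1 the Bach2 KO counts were 6 higher and 1 lower (Phgdh), with Chac1 at 4.73 ± 1.09 (adjusted p = 0.0189, limma), Trib3 at 3.06 ± 0.46, Mthfd2 at 2.93 ± 0.39, Ppp1r15a at 2.66 ± 0.39 and Ddit3 at 1.58 ± 0.42.

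The ER chaperone arm did not move as one. In DKO against WT, 5 of 23 tested members rose (Ern1, Atf6, Hyou1, Dnajc3 and Pdia4), or 21.7%, and 2 fell (Canx and Manf), or 8.7%. In Bach2 KO against WT, 6 rose (the same 5 and Sel1l), or 26.1%, and 5 fell (Xbp1, Herpud1, Calr, Canx and Derl1), or 21.7%. Of everything tested, 10.6% rose and 16.6% fell in DKO, and 12.4% rose and 24.7% fell in Bach2 KO, so the share that fell in Bach2 KO was near that of all genes. Hyou1 passed the filter on dim probes only through DKO, where it was high, and without it 4 of 22 rose in DKO and 5 of 22 in Bach2 KO. The arm's median difference was -0.06 in DKO and 0.39 in Bach2 KO, against -0.28 and -0.30 over everything tested, also with Hyou1 set to its lower bound. Both directions of this arm lean on the scaling: with quantile normalization 13 rose and 0 fell in Bach2 KO and 7 rose and 0 fell in DKO, and with no scaling 12 rose and 0 fell in Bach2 KO and 5 rose and 0 fell in DKO. Over all 23124 genes and transcripts, quantile normalization gave 3520 higher and 4354 lower in Bach2 KO and 2749 and 3456 in DKO. No scaling gave 4778 and 2165 in Bach2 KO and 3138 and 1844 in DKO. No scaling also moved the median of all genes and transcripts to 0.39 in Bach2 KO and 0.16 in DKO. Direction went with signal level in this arm. Members that rose had WT means from -7.2 (Hyou1) to 2.93 (Sel1l), and those that fell from 5.08 (Derl1) to 6.65 (Manf). The part of signal level in these calls was not tested. Within slide 1, 3 members rose in Bach2 KO (Dnajc3, Ern1 and Sel1l) and 1 fell (Herpud1), with Ern1 at 1.83 ± 0.55 (adjusted p = 0.0476, limma) and Dnajc3 at 1.49 ± 0.40 (adjusted p = 0.0328).

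**Figure D1:**
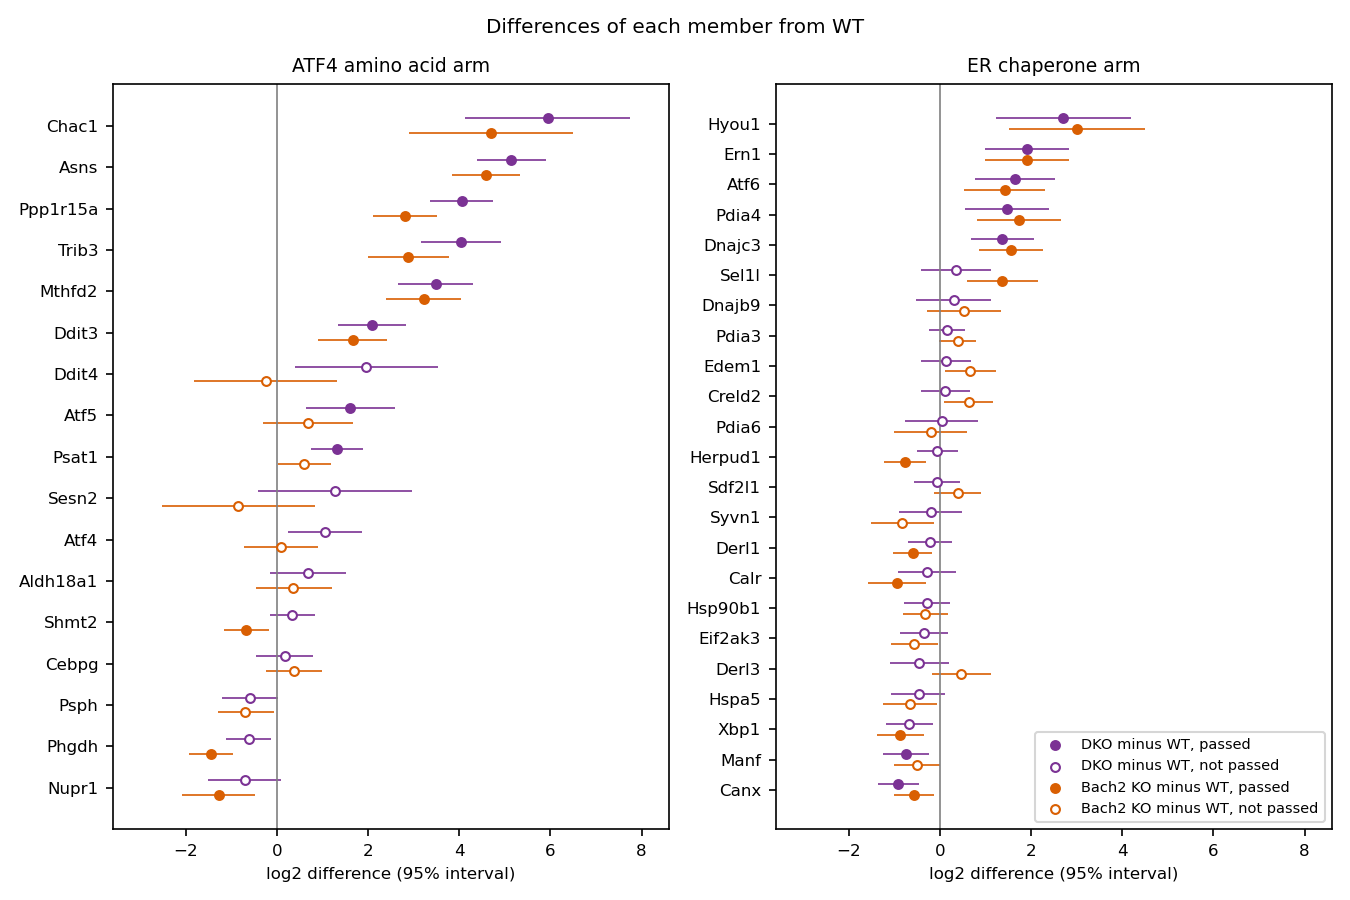
Log2 differences from WT with 95% intervals for the tested members of each arm, for DKO (purple, upper mark) and Bach2 KO (orange, lower mark), with members in the order of the DKO difference. Filled marks passed in the limma fit and open marks did not. In the ATF4 arm the top 6 genes stand to the right of 0 in both genotypes, and in the ER arm the filled marks lie on both sides. Hyou1 is drawn at its fitted value, which depends on WT signals that were not well above background.

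On single arrays, the median over ATF4 arm members of the value minus the member's WT mean was 1.06, 1.30 and 1.74 in DKO, 0.43, 0.36 and 0.5 in Bach2 KO, 0.10, -0.11 and 0.05 in Bach1 KO and 0.01, -0.21 and 0.30 in WT. The same median for the ER arm was -0.21, -0.17 and -0.02 in DKO, 0.36, 0.54 and 0.08 in Bach2 KO, -0.06, -0.31 and -0.06 in Bach1 KO and -0.05, -0.01 and 0.06 in WT. The ATF4 median minus the ER median was therefore 1.27, 1.47 and 1.76 on the DKO arrays, against 0.07, -0.18 and 0.42 in Bach2 KO, 0.16, 0.20 and 0.11 in Bach1 KO and 0.06, -0.20 and 0.24 in WT. The DKO arrays did not overlap the other 9. This gap is a description of the chosen members and carries no test.

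**Figure D2:**
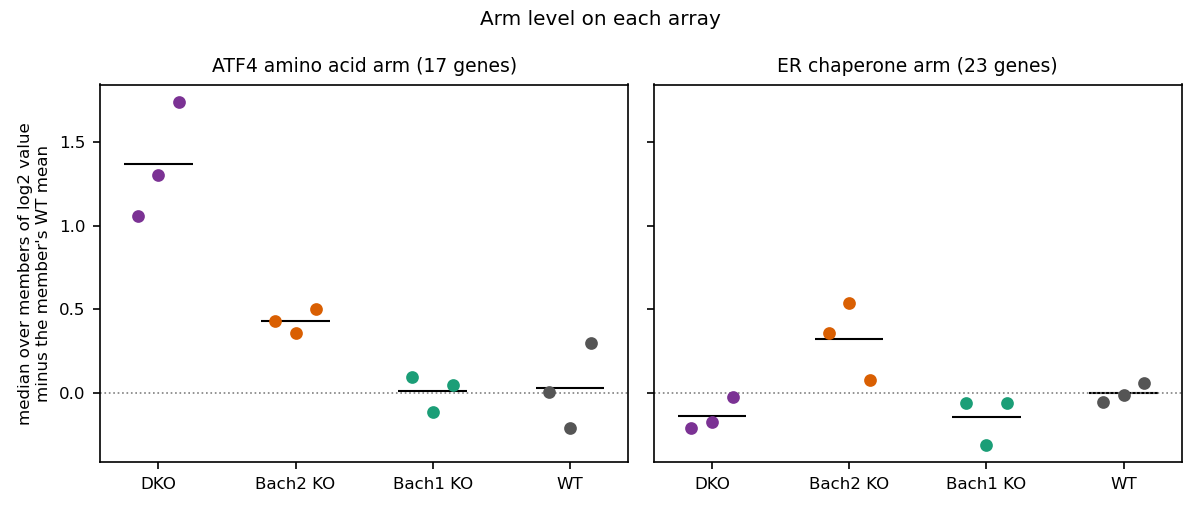
Median over the tested members of each arm of the log2 value minus the member's WT mean, 1 point per array with the group mean as a line. The DKO arrays reach 1.06 to 1.74 in the ATF4 arm and -0.21 to -0.02 in the ER arm, while WT arrays lie between -0.21 and 0.30.

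Transcription factors and feedback genes of the ATF4 arm carried some of its largest differences. Chac1, a glutathione-degrading enzyme induced by ATF4, read 4.40, 3.83 and 4.12 in DKO, 3.18, 2.65 and 2.82 in Bach2 KO, -1.25, -0.26 and -4.64 in Bach1 KO and -2.03, -2.03 and -1.40 in WT. Every DKO and Bach2 KO array lay above every Bach1 KO and WT array, and Bach1 KO replicate 3 was the lowest of all. The difference from WT was 5.94 ± 0.82 in DKO (61.2-fold, adjusted p = 0.000247, limma) and 4.70 ± 0.82 in Bach2 KO (26-fold, adjusted p = 0.0013). Trib3, a pseudokinase that feeds back on ATF4 and CHOP, read 5.70, 5.92 and 6.67 in DKO, 5.15, 5.10 and 4.58 in Bach2 KO, 2.63, 1.61 and 2.55 in Bach1 KO and 2.13, 1.30 and 2.74 in WT. Both Bach2-deficient genotypes stood apart from the other 2, by 4.04 ± 0.40 in DKO (16.4-fold, adjusted p = 1.87e-05, limma) and 2.88 ± 0.40 in Bach2 KO (7.38-fold, adjusted p = 0.000291) against WT. Ppp1r15a, which encodes GADD34 and directs the phosphatase that reverses eIF2 phosphorylation, read 4.37, 3.88 and 4.38 in DKO, 2.99, 2.66 and 3.26 in Bach2 KO, -0.47, 0.44 and 0.36 in Bach1 KO and -0.06, -0.12 and 0.66 in WT. It rose by 4.05 ± 0.32 in DKO (16.6-fold, adjusted p = 2.95e-06, limma) and 2.81 ± 0.32 in Bach2 KO (7.0-fold, adjusted p = 7.19e-05), and DKO and Bach2 KO arrays did not overlap either.

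Ddit3, which encodes the stress factor CHOP, read 4.23, 4.24 and 4.82 in DKO, 4.20, 3.66 and 4.15 in Bach2 KO, 2.94, 2.31 and 2.74 in Bach1 KO and 2.84, 1.55 and 2.65 in WT. It rose by 2.09 ± 0.34 in DKO (4.24-fold, adjusted p = 0.000884, limma) and 1.66 ± 0.34 in Bach2 KO (3.15-fold, adjusted p = 0.00358). Atf5, a bZIP factor translated like ATF4, read 6.69, 7.0 and 7.28 in DKO, 6.17, 6.13 and 5.87 in Bach2 KO, 6.52, 5.41 and 6.05 in Bach1 KO and 5.82, 4.16 and 6.16 in WT. WT replicate 2 was the lowest array by far. Atf5 rose in DKO against WT by 1.61 ± 0.45 (adjusted p = 0.0202, limma), but by 1.0 without WT replicate 2, and it did not pass without DKO replicate 2 or 3 (adjusted p from 0.0561 to 0.0653) or with scaling to the array median (1.46, adjusted p = 0.0512). Its difference in Bach2 KO, 0.68 ± 0.45, did not pass (adjusted p = 0.255), but passed with quantile normalization at 1.52 (adjusted p = 0.00439). Nupr1, a small chromatin-associated stress protein, was among the members that went the other way, with 4.71, 4.72 and 5.02 in DKO, 4.39, 4.25 and 4.11 in Bach2 KO, 5.76, 5.15 and 6.31 in Bach1 KO and 6.18, 4.68 and 5.72 in WT. It fell by 1.28 ± 0.37 in Bach2 KO (adjusted p = 0.0181, limma), a call that ended without WT replicate 1 or 3 or Bach2 KO replicate 3 (adjusted p from 0.0586 to 0.0769), within slide 1 (-1.21 ± 0.47, adjusted p = 0.099), with quantile normalization (-0.64, adjusted p = 0.059) and with no scaling (-0.59, adjusted p = 0.158). Cebpg, a bZIP partner of ATF4, differed from WT by 0.17 ± 0.28 in DKO and 0.37 ± 0.28 in Bach2 KO, and neither passed (adjusted p = 0.678 and 0.333).

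**Figure D3:**
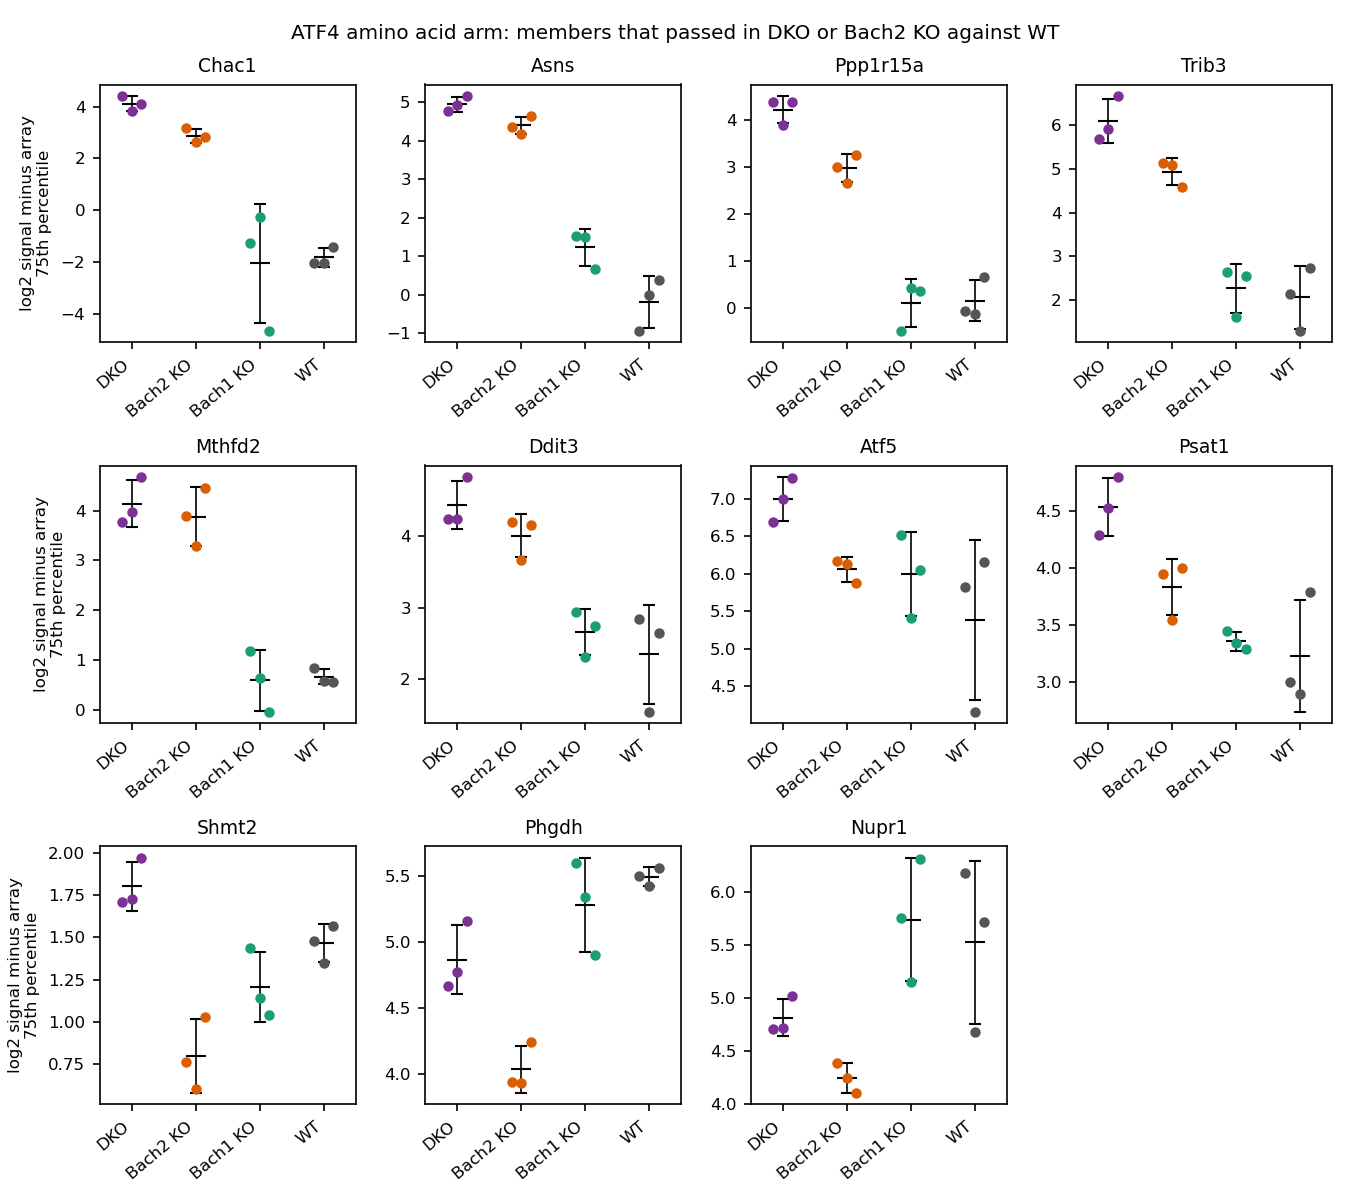
Log2 signal minus the array's 75th percentile on each array, for the 11 ATF4 arm members that passed in DKO or Bach2 KO against WT, with the mean and SD of the 3 arrays of each genotype. Chac1, Asns, Ppp1r15a, Trib3 and Mthfd2 separate DKO and Bach2 KO from Bach1 KO and WT with no overlap, and Phgdh is lowest in Bach2 KO. The vertical axis differs between genes.

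Genes of amino acid and one-carbon synthesis did not all go together. Asns, which makes asparagine, read 4.77, 4.93 and 5.16 in DKO, 4.36, 4.19 and 4.65 in Bach2 KO, 1.53, 1.5 and 0.67 in Bach1 KO and -0.93, 0 and 0.37 in WT. It was the member with the smallest adjusted p in both comparisons, at 5.14 ± 0.35 in DKO (35.4-fold, adjusted p = 8.08e-07, limma) and 4.58 ± 0.35 in Bach2 KO (24.0-fold, adjusted p = 3.06e-06). Within slide 1 the Bach2 KO difference was 4.46 ± 0.44 (adjusted p = 0.000431). Mthfd2, a mitochondrial folate enzyme, read 3.77, 3.97 and 4.67 in DKO, 3.89, 3.29 and 4.46 in Bach2 KO, 1.18, 0.63 and -0.04 in Bach1 KO and 0.84, 0.58 and 0.56 in WT. It rose by 3.48 ± 0.38 in DKO (11.1-fold, adjusted p = 3.52e-05, limma) and 3.22 ± 0.38 in Bach2 KO (9.32-fold, adjusted p = 8.12e-05), and the DKO and Bach2 KO arrays overlapped.

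The serine synthesis enzymes Phgdh, Psat1 and Psph, which act one after another, had unlike values. Phgdh read 4.67, 4.77 and 5.16 in DKO, 3.94, 3.93 and 4.24 in Bach2 KO, 5.60, 5.34 and 4.90 in Bach1 KO and 5.50, 5.42 and 5.56 in WT. It fell by 1.45 ± 0.22 in Bach2 KO (adjusted p = 0.000528, limma), within slide 1 by 1.55 ± 0.24 (adjusted p = 0.0034), and with no scaling it was -0.76 and did not pass (adjusted p = 0.076). In DKO its difference of -0.62 ± 0.22 did not pass (adjusted p = 0.0561), although the groups did not overlap. Psat1 read 4.29, 4.53 and 4.80 in DKO, 3.95, 3.55 and 4.0 in Bach2 KO, 3.45, 3.34 and 3.29 in Bach1 KO and 3.00, 2.90 and 3.79 in WT. The DKO arrays lay above all others, and Psat1 rose in DKO by 1.31 ± 0.26 (2.48-fold, adjusted p = 0.00323, limma) while its Bach2 KO difference was 0.60 ± 0.26 (adjusted p = 0.0908). With quantile normalization the Bach2 KO difference was 1.03 and passed (adjusted p = 0.00515). Psph differed by -0.60 ± 0.28 in DKO and -0.69 ± 0.28 in Bach2 KO, and neither passed (adjusted p = 0.136 and 0.0758).

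Shmt2, which makes glycine from serine in mitochondria, read 1.71, 1.73 and 1.97 in DKO, 0.76, 0.60 and 1.03 in Bach2 KO, 1.44, 1.14 and 1.04 in Bach1 KO and 1.48, 1.35 and 1.57 in WT. It was lowest in Bach2 KO and highest in DKO. Its Bach2 KO difference from WT, -0.67 ± 0.22 (adjusted p = 0.0352, limma), passed, but it did not pass within slide 1 (-0.79 ± 0.26, adjusted p = 0.0665), with quantile normalization (-0.55, adjusted p = 0.0751) or with no scaling, where it turned to 0.02 (adjusted p = 0.974). It also did not pass when any 1 of WT replicates 1 and 3, Bach2 KO replicates 1 and 2 and DKO replicate 1 was left out, with differences from -0.67 to -0.57. Aldh18a1, an enzyme of proline synthesis, read 1.48, 1.36 and 0.78 in DKO, 0.96, 1.15 and 0.56 in Bach2 KO, -0.15, 0.71 and -0.44 in Bach1 KO and 0.46, 1.13 and -0.01 in WT. DKO and WT overlapped, with a difference of 0.68 ± 0.38 that did not pass (adjusted p = 0.20).

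The mTORC1 inhibitors Ddit4 and Sesn2, with Chac1, had the widest spread within genotypes of the arm. Ddit4 read 3.30, 2.48 and 2.56 in DKO, 0.31, 1.18 and 0.22 in Bach2 KO, 0.40, -1.41 and -0.43 in Bach1 KO and 0.88, -0.89 and 2.48 in WT, so the WT arrays alone covered most of the range. Its difference in DKO from WT of 1.96 ± 0.72 did not pass (adjusted p = 0.0627, limma), nor did that in Bach2 KO of -0.25 ± 0.72 (adjusted p = 0.804). The DKO difference passed in 7 alternatives, among them quantile normalization (2.11, adjusted p = 0.046), no scaling (2.4, adjusted p = 0.0222), array quality weights (2.03, adjusted p = 0.00645) and leaving out WT replicate 3 (2.79, adjusted p = 0.00822). Sesn2 differed by 1.27 ± 0.77 in DKO and -0.85 ± 0.77 in Bach2 KO, and neither passed (adjusted p = 0.234 and 0.408). Over the arm, the spread within genotypes had a median SD of 0.48 (0.18 to 1.18), against 0.30 (0.16 to 0.92) in the ER arm.

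Atf4 itself gave different answers on its 2 probes. The brighter probe, which represents the gene, read 6.85, 6.57 and 7.56 in DKO, 5.94, 5.92 and 6.23 in Bach2 KO, 5.99, 5.35 and 6.11 in Bach1 KO and 5.92, 5.21 and 6.70 in WT. It differed from WT by 1.05 ± 0.37 in DKO (adjusted p = 0.0536, limma) and 0.09 ± 0.37 in Bach2 KO (adjusted p = 0.871), and neither passed. With quantile normalization both passed, at 1.54 (adjusted p = 0.0012) and 0.93 (adjusted p = 0.019). The DKO difference passed in further alternatives, among them no scaling (1.49, adjusted p = 0.00579) and array quality weights (0.92, adjusted p = 0.0112). It also passed without WT replicate 3 (1.43, adjusted p = 0.0137), but not with scaling to the array median (0.90, adjusted p = 0.139). The dimmer probe read 3.25, 4.41 and 4.25 in DKO, 4.44, 3.68 and 4.86 in Bach2 KO, 1.89, 2.13 and 1.31 in Bach1 KO and 1.58, 1.63 and 0.84 in WT. In a limma fit over every probe it rose by 2.62 ± 0.40 in DKO (adjusted p = 0.000568) and 2.97 ± 0.40 in Bach2 KO (adjusted p = 0.00025).

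The 2 Psat1 probes also differed. On the dimmer one, Psat1 read -1.44, -0.80 and 0.10 in DKO, -1.52, -1.71 and 0.57 in Bach2 KO, -2.56, -2.54 and -2.53 in Bach1 KO and -3.98, -2.62 and -4.32 in WT, and it rose by 2.92 ± 0.64 in DKO (adjusted p = 0.00642, limma over every probe) and 2.75 ± 0.64 in Bach2 KO (adjusted p = 0.0074). In all, 7 members had more than 1 kept probe, and for 5 of them the probes differed in call or sign in DKO or Bach2 KO against WT. The others were Phgdh, whose second probe fell in DKO (-0.85 ± 0.23, adjusted p = 0.0176), Pdia6, whose second probe rose in Bach2 KO (1.04 ± 0.33, adjusted p = 0.0281), and Derl1, whose second probe read 0.14 ± 0.20 in Bach2 KO (adjusted p = 0.615). In Bach2 KO against WT the dimmer probe gave the higher difference for each of the 7, as for Dnajb9 (1.78 against 0.53). In DKO this did not hold for Phgdh (-0.85 against -0.62) or Dnajb9 (0.29 against 0.30). Neither the transcript parts that the probes cover nor the part of their brightness was tested.

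**Figure D4:**
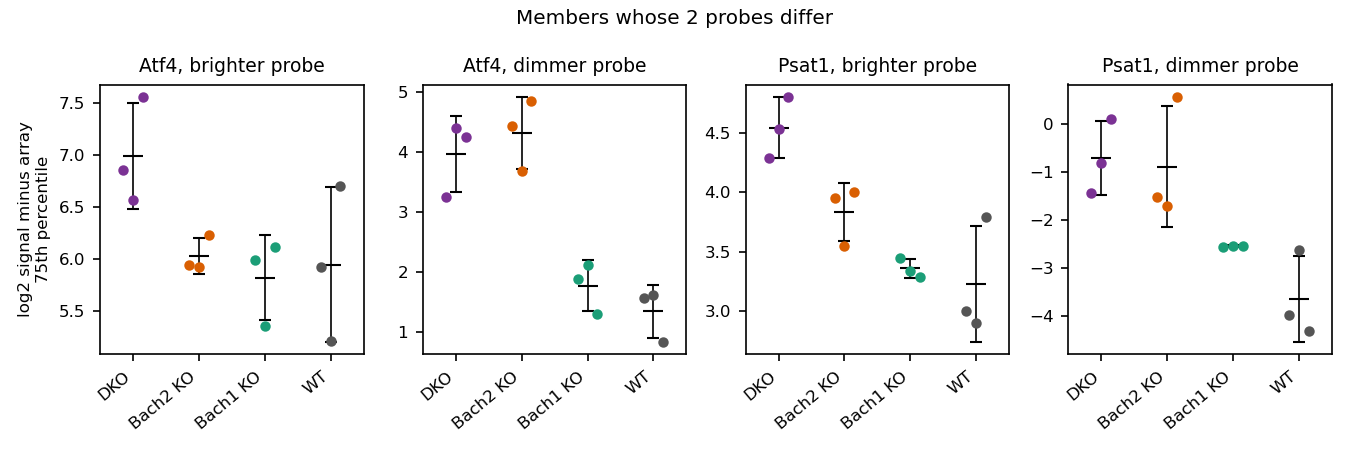
Log2 signal minus the array's 75th percentile on each array for the 2 kept probes of Atf4 and of Psat1, with the mean and SD per genotype. The dimmer probes place both DKO and Bach2 KO above all WT arrays, and the brighter Atf4 probe does not. The vertical axis differs between probes.

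In the ER arm, 2 of the sensors rose and the third did not pass. Ern1, which encodes IRE1, read -1.28, -1.40 and -1.65 in DKO, -1.15, -1.88 and -1.27 in Bach2 KO, -2.54, -2.35 and -3.81 in Bach1 KO and -3.72, -2.92 and -3.4 in WT. It rose by 1.91 ± 0.42 in DKO (3.75-fold, adjusted p = 0.00583, limma) and 1.91 ± 0.42 in Bach2 KO (3.76-fold, adjusted p = 0.00485). Atf6 read 1.22, 1.19 and 1.03 in DKO, 0.83, 1.19 and 0.77 in Bach2 KO, -0.48, 0.45 and -0.75 in Bach1 KO and -0.17, 0.07 and -1.37 in WT. It rose by 1.64 ± 0.40 in DKO (3.12-fold, adjusted p = 0.011, limma) and 1.42 ± 0.40 in Bach2 KO (2.68-fold, adjusted p = 0.0176). The Bach2 KO call of Atf6 ended without WT replicate 3 (0.98, adjusted p = 0.0579), without Bach2 KO replicate 2 (1.29, adjusted p = 0.0569) and within slide 1 (1.5 ± 0.53, adjusted p = 0.0765). Eif2ak3, which encodes PERK, read 2.84, 2.81 and 2.23 in DKO, 2.46, 2.61 and 2.21 in Bach2 KO, 2.91, 2.68 and 2.55 in Bach1 KO and 2.88, 3.24 and 2.84 in WT, and its differences of -0.36 ± 0.24 and -0.56 ± 0.24 did not pass (adjusted p = 0.282 in DKO and 0.087 in Bach2 KO).

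Xbp1, the factor that IRE1 activates by splicing, read 5.36, 5.61 and 5.86 in DKO, 5.41, 5.62 and 5.23 in Bach2 KO, 6.41, 5.76 and 6.27 in Bach1 KO and 6.20, 6.60 and 6.06 in WT. All Bach2-deficient arrays lay below all WT arrays. Xbp1 fell by 0.87 ± 0.23 in Bach2 KO (adjusted p = 0.0136, limma), while the DKO difference of -0.68 ± 0.23 did not pass (adjusted p = 0.0513). The DKO difference passed in some alternatives, among them array quality weights (-0.70, adjusted p = 0.00952) and scaling to the array median (-0.83, adjusted p = 0.0451). It did not pass with quantile normalization (-0.13, adjusted p = 0.657) or no scaling (-0.24, adjusted p = 0.493). The Bach2 KO call ended without Bach2 KO replicate 3 (-0.77, adjusted p = 0.0507), within slide 1 (-0.77 ± 0.26, adjusted p = 0.0684), with quantile normalization (-0.06, adjusted p = 0.845) and with no scaling (-0.18, adjusted p = 0.566). The probe does not tell spliced from unspliced Xbp1 as used here.

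Neither of the main ER chaperones passed in either genotype. Hspa5, which encodes BiP, differed from WT by -0.47 ± 0.27 in DKO (adjusted p = 0.211) and -0.66 ± 0.27 in Bach2 KO (adjusted p = 0.0755), and Hsp90b1, which encodes GRP94, by -0.28 ± 0.23 (adjusted p = 0.372) and -0.32 ± 0.23 (adjusted p = 0.298). The 95% intervals of the DKO differences ran from -1.07 to 0.12 for Hspa5 and from -0.78 to 0.22 for Hsp90b1. Both signs turned with quantile normalization, to 0.09 and 0.29 in DKO and 0.25 and 0.60 in Bach2 KO, of which the last passed (adjusted p = 0.00305). With array quality weights they passed as lower, Hspa5 at -0.75 in DKO (adjusted p = 0.014) and -0.88 in Bach2 KO (adjusted p = 0.00424), and Hsp90b1 at -0.45 in DKO (adjusted p = 0.0478). In DKO more of everything tested passed with these weights than in the main fit. Hspa5 also passed in Bach2 KO without WT replicate 2 (-0.88, adjusted p = 0.0277) and without Bach1 KO replicate 2 (-0.66, adjusted p = 0.0356). The BiP cofactor Hyou1, an ER chaperone of the HSP110 family, was dim: it read -4.74, -4.13 and -4.64 in DKO, -4.30, -4.80 and -3.50 in Bach2 KO, -7.91, -5.42 and -6.39 in Bach1 KO and -7.80, -5.90 and -7.92 in WT. It was well above background on 3 DKO, 2 Bach2 KO, 1 Bach1 KO and 0 WT arrays. Against the lowest signal called well above background on each WT array (or the probe's own value where higher), it was at least 2.87-fold higher in DKO (adjusted p = 0.0122, limma) and at least 3.54-fold higher in Bach2 KO (adjusted p = 0.00568), and neither passed with normexp background correction (0.41, adjusted p = 0.196, and 0.57, adjusted p = 0.068), nor did Bach2 KO within slide 1 (adjusted p = 0.0613). Since the DKO arrays alone carried it through the filter, its DKO p-value gives no support.

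Dnajc3, which encodes the PERK-inhibiting co-chaperone p58IPK, read 3.29, 3.30 and 2.96 in DKO, 3.08, 3.53 and 3.48 in Bach2 KO, 2.22, 2.13 and 1.96 in Bach1 KO and 1.72, 2.56 and 1.15 in WT. It rose by 1.37 ± 0.32 in DKO (2.59-fold, adjusted p = 0.00772, limma) and 1.55 ± 0.32 in Bach2 KO (2.93-fold, adjusted p = 0.00329). Pdia4, a disulfide isomerase, read 2.53, 2.38 and 2.92 in DKO, 2.77, 2.18 and 3.66 in Bach2 KO, 1.28, 0.74 and 1.48 in Bach1 KO and 1.52, 0.34 and 1.55 in WT. It rose by 1.48 ± 0.42 in DKO (2.79-fold, adjusted p = 0.0222, limma) and 1.74 ± 0.42 in Bach2 KO (3.33-fold, adjusted p = 0.00792). The DKO call of Pdia4 ended without WT replicate 2 or DKO replicate 1 or 3 (1.08 to 1.52, adjusted p from 0.0561 to 0.0728) and with scaling to the array median (1.33, adjusted p = 0.055), and the Bach2 KO call within slide 1 (1.34 ± 0.44, adjusted p = 0.0635). The other isomerases Pdia3 and Pdia6 differed by 0.16 ± 0.19 and 0.04 ± 0.37 in DKO and by 0.39 ± 0.19 and -0.20 ± 0.37 in Bach2 KO, and none passed.

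Manf, a secreted ER stress protein, read 5.64, 5.93 and 6.11 in DKO, 6.10, 6.33 and 6.00 in Bach2 KO, 6.54, 6.32 and 7.0 in Bach1 KO and 6.71, 6.31 and 6.91 in WT. It fell in DKO by 0.75 ± 0.23 (adjusted p = 0.0321, limma), but not when any 1 of WT replicates 1 and 3 and DKO replicates 1 and 2 was left out (-0.77 to -0.62, adjusted p from 0.0748 to 0.119), nor with quantile normalization (-0.16, adjusted p = 0.385) or no scaling (-0.31, adjusted p = 0.187). Its Bach2 KO difference was -0.50 ± 0.23 (adjusted p = 0.11) and turned to 0.43 with quantile normalization (adjusted p = 0.0247). The lectin chaperone Canx fell by 0.91 ± 0.20 in DKO (adjusted p = 0.00622, limma) and by 0.56 ± 0.20 in Bach2 KO (adjusted p = 0.0478). With quantile normalization Canx was -0.34 in DKO (adjusted p = 0.281) and turned to 0.30 in Bach2 KO (adjusted p = 0.318), and with no scaling it was -0.47 (adjusted p = 0.214) and 0.13 (adjusted p = 0.735). Within slide 1 it was -0.57 ± 0.23 (adjusted p = 0.116), and its Bach2 KO call ended on leaving out any of 9 of the 12 arrays. Calr, its soluble relative, fell by 0.94 ± 0.29 in Bach2 KO (adjusted p = 0.0254, limma), but not without WT replicate 3 or Bach2 KO replicate 3 (-0.75 and -0.58), within slide 1 (-0.58 ± 0.23, adjusted p = 0.11) or with quantile normalization (-0.14, adjusted p = 0.694). Dnajb9, Sdf2l1 and Creld2, further UPR-induced folding genes, differed by 0.30, -0.07 and 0.11 in DKO and 0.53, 0.39 and 0.63 in Bach2 KO, and none passed. With quantile normalization Creld2 was 1.41 (adjusted p = 5.92e-05) and Sdf2l1 1.18 (adjusted p = 0.000116) in Bach2 KO and Creld2 0.55 (adjusted p = 0.0249) in DKO, and with no scaling Dnajb9 was 1.22 in Bach2 KO (adjusted p = 0.0451).

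**Figure D5:**
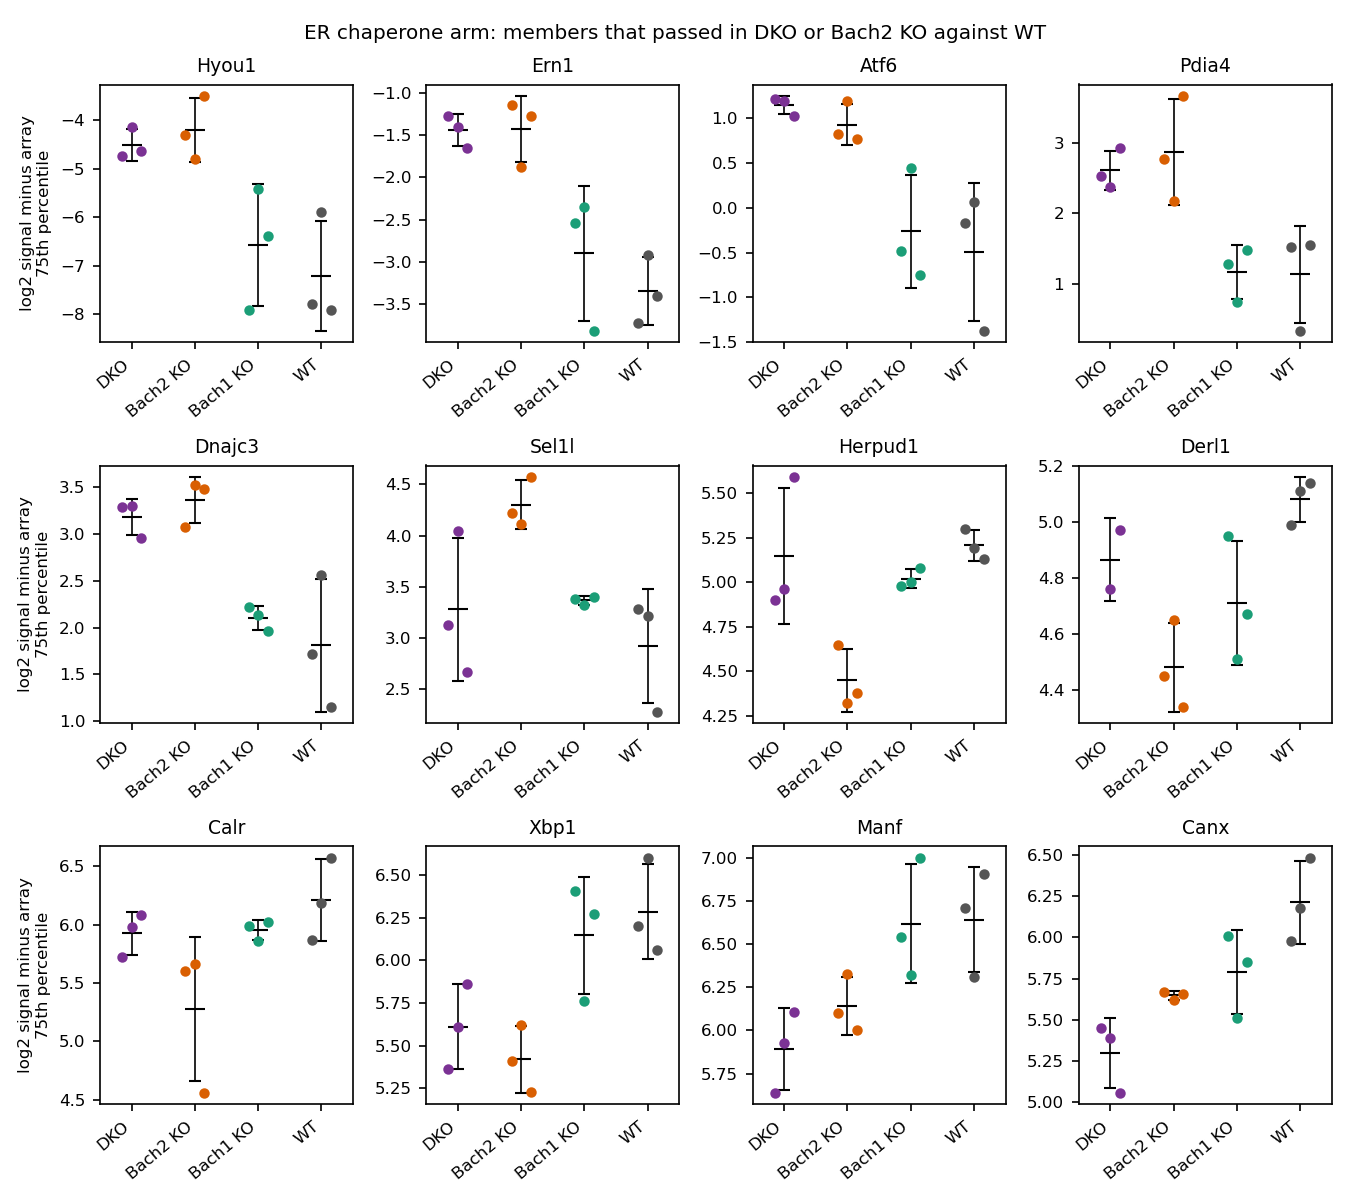
Log2 signal minus the array's 75th percentile on each array, for the 12 ER arm members that passed in DKO or Bach2 KO against WT, with the mean and SD per genotype. Ern1, Atf6, Pdia4 and Dnajc3 place all DKO and Bach2 KO arrays above all WT arrays, Hyou1 was well above background on no WT array, and 1 DKO array has no Derl1 value. The vertical axis differs between genes.

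Among the genes of ER-associated degradation, Sel1l, the adaptor of the HRD1 ubiquitin ligase, read 3.13, 4.04 and 2.67 in DKO, 4.22, 4.11 and 4.57 in Bach2 KO, 3.38, 3.32 and 3.4 in Bach1 KO and 3.28, 3.21 and 2.28 in WT. It rose in Bach2 KO by 1.37 ± 0.35 (2.59-fold, adjusted p = 0.0108, limma), within slide 1 by 1.24 ± 0.32 (adjusted p = 0.0284), and the DKO difference of 0.35 ± 0.35 did not pass (adjusted p = 0.472). DKO against Bach2 KO did not pass either (-1.02 ± 0.35, adjusted p = 0.13). Syvn1, the HRD1 ligase itself, was -0.20 ± 0.31 in DKO and -0.83 ± 0.31 in Bach2 KO, and neither passed (adjusted p = 0.65 and 0.0586). Herpud1, which binds HRD1, fell by 0.76 ± 0.21 in Bach2 KO (adjusted p = 0.0152, limma), within slide 1 by 0.73 ± 0.20 (adjusted p = 0.0333), but not without WT replicate 1 (-0.71, adjusted p = 0.0543) or with quantile normalization (-0.13, adjusted p = 0.621).

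Derl1, a channel component, fell by 0.60 ± 0.19 in Bach2 KO (adjusted p = 0.0309, limma), where 1 DKO array had no value. Its call ended on leaving out any of 7 arrays and within slide 1 (-0.53 ± 0.21, adjusted p = 0.108), and it turned to 0.02 with quantile normalization, to 0.09 with no scaling, and to 0.14 without DKO replicate 2 or 3, where its other probe was used. With the replicate block it was -0.60 and did not pass (adjusted p = 0.0611). Its relative Derl3 differed by -0.45 ± 0.30 in DKO and 0.47 ± 0.30 in Bach2 KO, and neither passed (adjusted p = 0.271 and 0.235). Edem1, a mannosidase-like protein that passes glycoproteins to degradation, differed by 0.13 ± 0.25 in DKO (adjusted p = 0.724) and 0.67 ± 0.25 in Bach2 KO (adjusted p = 0.0557), and the Bach2 KO difference passed with quantile normalization at 1.24 (adjusted p = 0.0081).

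The calls were also counted by the promoter letters. Of 9 tested members with ERSE, 1 rose (Dnajc3), 1 fell (Canx) and 7 did not pass in DKO, and 1 rose (Dnajc3), 2 fell (Calr and Canx) and 6 did not pass in Bach2 KO. Of 4 tested members with CARE, 3 rose (Asns, Chac1 and Trib3) and 1 did not pass (Nupr1) in DKO, and the same 3 rose and Nupr1 fell in Bach2 KO. Of 13 tested ATF4 arm members without CARE in the window, 5 rose in DKO, and 3 rose and 2 fell in Bach2 KO. Of everything tested, 10.6% rose and 16.6% fell in DKO, and 12.4% rose and 24.7% fell in Bach2 KO. The counts of members with ERSE were near these shares. All counts by promoter letters describe the windows searched and carry no test.

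Loss of Bach1 alone moved no member past the threshold. In Bach1 KO against WT, 0 of 17 ATF4 arm and 0 of 23 ER arm members passed in limma, where 0.0605% of all genes and transcripts passed (0.0173% higher and 0.0432% lower). At an unadjusted p under 0.05 there were 1 of 17 and 1 of 23, against 5.31% of everything tested. The arm medians were -0.06 and -0.11, against -0.07 over everything tested. Asns had the largest positive difference of its arm, 1.42 ± 0.35 with no overlap between the groups, and did not pass (adjusted p = 0.304). With array quality weights it was 2.06 and passed (adjusted p = 0.0115), and in no other setting run did a member pass. Derl3 was the ER arm gene with the smallest adjusted p, at -1.03 ± 0.30 (adjusted p = 0.439).

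DKO against Bach1 KO sets mice lacking both genes against mice lacking Bach1, on different slides. Of the ATF4 arm, 10 of 17 rose and 0 fell, or 58.8%, where 10.9% of everything tested rose, 15.3% fell and 26.1% passed. The median was 1.18 against -0.21 over everything tested. Besides Chac1, Asns, Ppp1r15a, Trib3, Mthfd2, Ddit3 and Psat1, the 10 include 3 that had not passed against WT. Ddit4 rose by 3.26 ± 0.72 (9.60-fold, adjusted p = 0.00603, limma), Atf4 by 1.18 ± 0.37 on its brighter probe (adjusted p = 0.0356) and Aldh18a1 by 1.17 ± 0.38 (adjusted p = 0.0418). The Atf4 call ended on leaving out any of 5 arrays (0.89 to 1.26) and that of Aldh18a1 on leaving out any of 7 (0.93 to 1.17). With slide as a random block the calls of Aldh18a1 (1.18, adjusted p = 0.0514, limma), Hyou1 (2.05, adjusted p = 0.0562) and Manf (-0.72, adjusted p = 0.0501) ended. Of the ER arm, 5 of 23 rose (Hyou1, Ern1, Pdia4, Atf6 and Dnajc3), or 21.7%, and 1 fell (Manf, -0.73 ± 0.23, adjusted p = 0.0385), or 4.35%, with a median of 0.13. Hyou1 is counted here although its high DKO signals alone carried it through the filter, and without it 4 of 22 rose. Each of these 6 calls ended on leaving out at least 3 of the 12 arrays, one at a time, and without DKO replicate 1 none was left.

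DKO against Bach2 KO asks what Bach1 loss adds. Shmt2 was the one member that passed, higher in DKO by 1.01 ± 0.22 (2.01-fold, adjusted p = 0.0325, limma), and its call ended on leaving out any of 7 arrays (0.91 to 1.12, adjusted p from 0.0507 to 0.109). Thus 1 of 17 ATF4 arm members and 0 of 23 ER arm members passed in limma, where 3.56% of everything tested passed (1.45% higher and 2.11% lower). At an unadjusted p under 0.05 there were 8 of 17 and 4 of 23, against 21.3% of everything tested. The ATF4 arm's median was 0.83 against 0.03 over everything tested, the sign was positive for 16 of 17 members, as for 51.6% of everything tested, and for 12 of the 17 all DKO arrays lay above all Bach2 KO arrays, as did 18.6% of everything tested. Atf4 and Psat1 are among the 12 on their brighter probes. On their dimmer probes the differences were -0.35 ± 0.40 and 0.17 ± 0.64, and the arrays overlapped. The ER arm's median was -0.18, and 4 of its members lay wholly above and 5 wholly below, against 18.6% and 16.5% of everything tested. Ppp1r15a (1.24 ± 0.32, adjusted p = 0.0587), Phgdh (0.83 ± 0.22, adjusted p = 0.0658) and Ddit4 (2.21 ± 0.72, adjusted p = 0.109) did not pass. Slide and scan day differ between these groups in full.

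The interaction (DKO minus Bach1 KO minus Bach2 KO plus WT) tests whether the 2 losses add up. No member passed in limma, where 0.675% of everything tested passed (0.104% above and 0.571% below additivity). At an unadjusted p under 0.05 there were 5 of 17 and 4 of 23, against 14.8% of everything tested. The medians were 0.80 in the ATF4 arm and -0.01 in the ER arm, against 0.09 over everything tested. For Ddit4 the interaction was 3.52 ± 1.02 (adjusted p = 0.17), for Shmt2 1.27 ± 0.32 (adjusted p = 0.116), and for Asns -0.86 ± 0.49 (adjusted p = 0.428).

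Genes of the same pathways outside the 43 were counted from lists of known genes, also chosen with earlier results of these data known. The counts are to be read against everything tested, of which 10.6% rose and 16.6% fell in DKO and 12.4% rose and 24.7% fell in Bach2 KO, with medians of -0.28 and -0.30. Of 18 tested further ATF4 targets, 11 rose and 1 fell in DKO, and 11 rose and 3 fell in Bach2 KO, with medians of 1.56 and 1.45. Gadd45a, a growth arrest gene, rose by 4.52 ± 0.30 in DKO (adjusted p = 6.45e-07, limma) and 4.45 ± 0.30 in Bach2 KO (adjusted p = 1.15e-06). Slc7a11, the cystine transporter, rose by 3.58 ± 0.38 (adjusted p = 3.13e-05) and 3.84 ± 0.38 (adjusted p = 2.47e-05), and Cth, which makes cysteine and passed the filter only through the genotypes where it was high, was at least 4.47-fold and at least 5.79-fold higher. Of 18 amino acid transporters, 7 rose and 4 fell in DKO, and 6 rose and 3 fell in Bach2 KO. Slc7a11 is counted in this list too. Slc7a3, among those that rose, was well above background on no WT or Bach1 KO array. It passed the filter only through genotypes where it was high. Slc7a1, the arginine and lysine transporter, rose by 1.77 ± 0.29 in Bach2 KO (adjusted p = 0.000944, limma). Slc43a2, a transporter of large neutral amino acids, fell by 2.87 ± 0.29 in DKO and 3.11 ± 0.29 in Bach2 KO, and Slc1a3, a glutamate transporter that was well above background on no DKO array, was at least 80.4-fold lower in DKO than in WT (adjusted p = 4.94e-06, limma).

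Of 23 cytosolic tRNA synthetases and their partners, which charge tRNAs with amino acids, 10 rose and 0 fell in DKO (43.5% and 0%), and 5 rose and 6 fell in Bach2 KO (21.7% and 26.1%), the share that fell being near the 24.7% of everything tested. Rars rose by 3.41 ± 0.46 in DKO (adjusted p = 0.000193, limma) and 1.78 ± 0.46 in Bach2 KO (adjusted p = 0.0108), Eprs by 1.48 ± 0.24 and the tRNA exporter Xpot by 1.60 ± 0.30 in DKO, while Aimp2 (-1.52 ± 0.32) and Gars (-1.06 ± 0.25) fell in Bach2 KO. DKO against Bach2 KO showed 0 of 23 passed in limma, with 7 at an unadjusted p under 0.05, against 21.3% of everything tested. Of 15 eIF2 kinases, eIF2 and eIF2B subunits and phosphatase genes, 1 rose and 1 fell in DKO (Ppp1r15b, 1.35 ± 0.24, and the RNA-sensing kinase Eif2ak2, -1.49 ± 0.36), and 0 rose and 2 fell in Bach2 KO (Gcn1, -1.21 ± 0.33, and Eif2s2, -0.62 ± 0.21). Impact in DKO (0.76 ± 0.33) and Eif2b2 in Bach2 KO (-0.75 ± 0.29) did not pass.

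The ER lists held calls in both directions, several at shares near those of everything tested (10.6% higher and 16.6% lower in DKO, 12.4% and 24.7% in Bach2 KO). Of 28 further ER folding genes, 6 rose and 1 fell in DKO, and 8 rose and 4 fell in Bach2 KO, with medians of 0.17 and 0.20. Ero1a, which oxidises the disulfide isomerases, rose by 1.73 ± 0.29 (adjusted p = 0.001, limma) in DKO and 1.48 ± 0.29 (adjusted p = 0.00255) in Bach2 KO, and Hspa13 by 0.83 ± 0.25 and 1.49 ± 0.25. Calu, a calcium-binding ER protein, rose by 2.35 ± 0.43 in Bach2 KO and Pofut2, an O-fucosyltransferase, by 1.45 ± 0.44 in DKO. Of 22 further degradation genes, 3 rose and 2 fell in DKO, and 4 rose and 3 fell in Bach2 KO. The mannosidase Man1a, well above background on no WT array and kept only through the genotypes where it was high, was at least 22.5-fold and at least 30.9-fold higher, Edem2 rose by 1.05 ± 0.29 and 2.0 ± 0.29, Vcp fell in DKO (-1.02 ± 0.30) and Man1b1 in Bach2 KO (-2.01 ± 0.47).

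Of 31 translocon, glycosylation and signal peptidase genes, 4 rose and 2 fell in DKO, and 6 rose and 6 fell in Bach2 KO, where 10.6% and 16.6% of everything tested did so in DKO and 12.4% and 24.7% in Bach2 KO. Stt3a, an oligosaccharyltransferase subunit, rose by 2.5 ± 0.49 (adjusted p = 0.00294, limma) in DKO and 2.70 ± 0.49 (adjusted p = 0.00168) in Bach2 KO. Srpr (1.85 ± 0.41) and Sec61a2 (1.54 ± 0.35) rose in DKO, and in Bach2 KO Sec63 rose (1.44 ± 0.30) and Ssr4 fell (-1.33 ± 0.28). Of 18 cytosolic heat shock genes, 1 rose and 1 fell in DKO (Dnajb4, 2.65 ± 0.75, and Dnajb1, -0.96 ± 0.26), and 2 rose and 4 fell in Bach2 KO, among them Hspa1l (1.78 ± 0.54), Hsf1 (-1.71 ± 0.43) and Hspa8 (-0.93 ± 0.29). Cryab in DKO (-0.95 ± 0.36) did not pass. The heat shock medians were -0.15 and -0.44, against -0.28 and -0.30 over everything tested.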

How the data were processed

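The deposited scanner files hold an intensity per spot from a single Cy3 channel, corrected for background and spatial trend on each array but not scaled across arrays, per the file headers (Agilent Feature Extraction 10.7.3.1; the submitters' processing notes give 9.1). The deposited series matrix holds log2 values, which were used as an alternative. How its values were made was not given in the sources used here.

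From log2 of the processed signal, the array's 75th percentile over spots that are not controls was subtracted. Outlier spots were left out, spots of a probe were averaged, and a probe was kept when some genotype had it well above background in its 3 mice (30848 of 55681 probes). Accessions named 26413 probes by 1 gene of RefSeq, the other 29268 staying unnamed, and the brightest probe stood for a gene. Of 23124 genes or transcripts tested, 13810 are named. A mean per genotype was fitted by limma 3.58.1 (R 4.3.3) with eBayes and a trend, with 8 residual degrees of freedom. The fit was tested on simulated data. Where a group was well above background on no array, the fold is a bound.

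Members and lists were chosen with earlier results of these data known. All 43 members are named. Values on every array are given for members that passed in DKO or Bach2 KO against WT with a difference of at least 1, those that passed in another comparison, and Atf4, Xbp1, Atf6 and Eif2ak3, and each further list is named by the 3 smallest adjusted p-values per comparison. The numbers of the mice were taken as names and not as pairs. Of 18 same-numbered pairs, 6 had deviations correlated above 0.1 (-0.143 to 0.385), which does not settle whether the numbers pair mice. The planned normexp on mean signals was not run, since the spot columns used here hold median and not mean signals, and normexp (offset 50) on median signals was chosen after seeing the data. No protein sequences were used here. One marker gene is not reported here.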

Additional observations from a re-analysis of the deposited data

How the results depend on the processing

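Of 15 members called in DKO against WT, 10 passed in every alternative run, as did 9 of 20 in Bach2 KO against WT (Asns, Chac1, Ddit3, Dnajc3, Ern1, Mthfd2, Ppp1r15a, Sel1l and Trib3), 8 of 16 in DKO against Bach1 KO and 0 of 1 in DKO against Bach2 KO. In Bach2 KO against WT 3 members turned sign in some setting: Canx to 0.30 with quantile normalization and 0.13 with no scaling, Derl1 to 0.02, 0.09 and, without DKO replicate 2 or 3, 0.14 (leaving out 1 array gave -0.69 to 0.14), and Shmt2 to 0.02 with no scaling. No scaling raised the share of higher calls to 68.8% from 33.5% in Bach2 KO and to 63.0% from 38.9% in DKO against WT, and quantile normalization to 44.7% in Bach2 KO. In DKO against Bach1 KO and DKO against Bach2 KO it was 57.6% and 20.3% with no scaling, from 41.5% and 40.7%. Dim genes such as Hyou1 are limited by background.

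Counts that moved by over 1.5 times follow. For ATF4 arm members, Bach1 KO against WT moved to 1 with array quality weights, from 0. DKO against WT moved to 14 (11 higher and 3 lower) with array quality weights, from 8. DKO against Bach2 KO moved from 1 to 0 with no scaling and with no filter on dim probes, 2 with normexp and with series matrix values, 5 with the compared groups alone and 7 with array quality weights, and leaving out 1 array gave 0 to 3. The interaction moved from 0 to 3 with array quality weights, and leaving out 1 array gave 0 to 1 (without WT replicate 2). For ER arm members, Bach2 KO against WT moved from 11 to 4 within slide 1 and 6 with a 2-fold threshold, and leaving out 1 array gave 7 to 13. DKO against Bach1 KO moved from 6 to between 0 and 6 on leaving out 1 array. DKO against Bach2 KO moved from 0 to 3 with quantile normalization and 4 with array quality weights, and the interaction from 0 to 1 with quantile normalization.

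Over all genes and transcripts, Bach1 KO against WT moved from 14 to 27 after quantile normalization, 190 with array quality weights, 7 where every one of the 12 arrays had to be well above background, 2 with the compared groups alone and 4 within slide 1, and to between 7 and 86 on leaving out 1 array. Bach2 KO against WT moved from 8583 to 4937 within slide 1, where 2 Bach2 KO arrays remain. With array quality weights DKO against WT moved from 6284 to 10714, DKO against Bach1 KO from 6040 to 9096, DKO against Bach2 KO from 824 to 3986 and the interaction from 156 to 1408. DKO against Bach2 KO also moved to 1349 with quantile normalization, 1451 with series matrix values and 1868 with the compared groups alone, and to between 293 and 1066 on leaving out 1 array. The interaction moved to 90 with the filter on all 12 arrays and to between 75 and 265 on leaving out 1 array. Where no cause is named, the cause was not tested.

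The replicate numbers were not treated as pairs, and 6 of 12 arrays correlated best with their own number. Whether the numbers stand for a shared batch is not settled by these correlations. With the replicate block, 9 ATF4 arm and 7 ER arm members passed in DKO against WT and 9 and 10 in Bach2 KO against WT. In Bach2 KO, Canx (-0.56, adjusted p = 0.0717, limma) and Derl1 (-0.60, adjusted p = 0.0611) no longer passed and Edem1 did (0.67, adjusted p = 0.0388), and in DKO Atf4 did (1.05, adjusted p = 0.0101).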
